A study of Homo sapiens with 3 samples.

Results

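Zinc finger genes that carry a ZNF symbol were examined in HEK293, an established human line made from embryonic kidney cells with adenovirus DNA, by RNA sequencing of 3 libraries. They were chosen by name and by level: the symbol is ZNF, a number and at most 1 further capital letter, and the deposited count is at least 10 in each library. The counts thus selected the members, and their levels are given as a description. They numbered 65 of the 529 ZNF symbols and of the 26485 gene names in the tables. All 3 libraries formed 1 group (n = 3), with no treatment in the labels and grown in a serum-supplemented medium, so no contrast between groups existed. Whether the replicates were separate cultures is not given, so the p-values measure only the spread between these samples, which can be technical. Ribosomal RNA was removed and a strand-keeping library kit was used, although the sample titles call them mRNA sequencing. The open question was which of these genes collected counts and whose counts differed between replicates beyond counting noise.

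Most ZNF genes encode DNA-binding proteins built from a row of C2H2 fingers, in each of which a pair of cysteines and a pair of histidines hold a zinc ion. Many also carry a KRAB box, a repressor domain that recruits the co-repressor TRIM28 and, through it, the histone methyltransferase SETDB1 and heterochromatin proteins to retroelements and other targets. A smaller group has a SCAN domain, through which the proteins pair with each other. The family grew by tandem duplication, and large clusters of its genes lie on chromosome 19.

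The repeated unit that names the family was read from the coding exons of 5 of the most abundant members with such a unit (GRCh38, all on the minus strand, printed in the sense of the gene). Each stretch of 78 bases is the first finger that is followed by a standard linker, and capitals mark the codons of the 2 cysteines and the 2 histidines.
ZNF154, chr19:57702385-57702462: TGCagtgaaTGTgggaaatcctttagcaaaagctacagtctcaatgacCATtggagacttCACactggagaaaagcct
ZNF814, chr19:57874085-57874162: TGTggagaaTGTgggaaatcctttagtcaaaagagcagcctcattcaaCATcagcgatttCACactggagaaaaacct
ZNF506, chr19:19795203-19795280: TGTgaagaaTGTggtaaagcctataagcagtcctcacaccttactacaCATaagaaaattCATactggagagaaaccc
ZNF3, chr7:100071803-100071880: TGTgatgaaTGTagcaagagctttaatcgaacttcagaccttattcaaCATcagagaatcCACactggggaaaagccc
ZNF529, chr19:36547547-36547624: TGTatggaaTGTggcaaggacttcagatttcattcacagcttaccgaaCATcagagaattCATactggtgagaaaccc
Over the 10 pairs of these stretches, between 46 and 60 of the 78 bases were identical. The closest pair was ZNF154 and ZNF814 (60 bases), which lie in the same cluster of chromosome 19, and the most distant was ZNF154 and ZNF529 (46 bases). A finger with this linker was found in 47 members. Because reads that align to more than 1 place were set aside, such likeness bears on how many reads a member could receive. The share of 32-base words of a member's longest transcript that recur in a gene outside that member's span had a median of 3.38%. It was above 10% in 12 members, led by ZNF587 (32.01%), ZNF814 (26.3%), ZNF552 (25.6%), ZNF486 (21.9%) and ZNF506 (20.8%). Among the 464 ZNF symbols below the count minimum, the median was 3.77% and 26.9% of the symbols exceeded 10%, against 18.5% of the members. The counts of these 12 members are uncertain.

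Gene-assigned counts were few and their strand is uncertain. They totalled 289241 to 483114 per library, or 2.02% ± 0.396 (SD, n = 3) of all records, and 91.2% ± 0.472 (SD, n = 3) of records fell in no feature. Exons of 60.0% of the members overlap an exon on the other strand. Of all records, 0.0184% were counted as ambiguous. The first is a share of genes and the second a share of records, so they cannot be set against each other. TRIM28 itself received 4, 0 and 1 counts in replicates 1, 2 and 3. Which strand the counter was set to read is not given, so reads of a member and of an opposite-strand partner cannot be told apart, and the values below are counts under gene names and do not show which genes the line expresses. Of 7 markers of other cell types, none had 10 counts in every library. PTPRC, CD3E, ALB, APOA1 and UMOD had no count, AQP2 had 5, 0 and 0, and LYZ had 23, 13 and 8. Only 9.68% of all gene names reached that minimum, so low counts of these markers say little about the cells.

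The members together held 3668 counts in replicate 1, 4790 in replicate 2 and 2806 in replicate 3. These were 0.890% of gene-assigned counts in replicate 1 (95% Wilson interval 0.862% to 0.919%), 0.991% in replicate 2 (0.964% to 1.02%) and 0.970% in replicate 3 (0.935% to 1.01%). The intervals cover counting error only. Replicate 1 lay below the others, and the intervals of replicates 2 and 3 overlapped. In CPM, counts scaled to 1000000 of an effective library size that edgeR's TMM method adjusts for composition, the summed levels were 8385, 11041 and 9248 CPM, a mean of 9558 ± 1355 (SD, n = 3). A single count was worth 2.29, 2.31 and 3.30 CPM. Of the other ZNF symbols, 145 had no count in any library, which allows at most the value of 3 counts, 6.86, 6.92 and 9.89 CPM, in replicates 1, 2 and 3. The 464 symbols below the minimum held 24.3% of all ZNF counts.

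Counts were spread unevenly over the members, and the 12 with the highest mean CPM held 55.3% of them. ZNF276, a gene on chromosome 16 whose 3′ end overlaps that of the DNA repair gene FANCA, led with 588, 400 and 463 counts, or 1264 ± 310 CPM (SD, n = 3). It was lowest in replicate 2, and its lowest library still lay above the highest value of any other member. ZNF154, a KRAB gene whose promoter is often methylated in tumours, had 172, 363 and 127 counts (549.5 ± 249.1 CPM). ZNF654, on chromosome 3, had 143, 308 and 114 counts (471 ± 208 CPM). ZNF814, a KRAB gene with 23 fingers, had 190, 262 and 81 counts (435 ± 168 CPM), and ZNF506, a KRAB gene in a pericentromeric cluster of chromosome 19, had 100, 339 and 78 counts (422 ± 311 CPM). Replicate 2 was the highest library for these 4 genes, and their spreads overlapped, so their order is not settled by these samples.

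The next members of the ranking varied less, apart from the last 3. ZNF3 had 168, 139 and 136 counts (384 ± 63.9 CPM), ZNF529 had 135, 177 and 107 (356 ± 49.8 CPM), ZNF140 had 120, 147 and 117 (333 ± 55.9 CPM) and ZNF224 had 114, 143 and 101 (308 ± 40.8 CPM, SD, n = 3 each). All 4 encode KRAB proteins, and ZNF224 is known as a repressor of the aldolase A gene. Neighbours in this order lay within 1 SD of each other. ZNF833P, a transcribed pseudogene with no protein, had 84, 198 and 68 counts (291 ± 144 CPM). ZNF785 had 132, 74 and 96 counts (263 ± 80.3 CPM) and ZNF805 had 92, 114 and 44 (206 ± 59.0 CPM, SD, n = 3 each), and both encode KRAB proteins. In all, 25 members had a mean above 100 CPM and 14 had a mean below 50 CPM, down to ZNF780B with 12, 11 and 13 counts (31.9 ± 9.56 CPM).

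**Figure D1:**
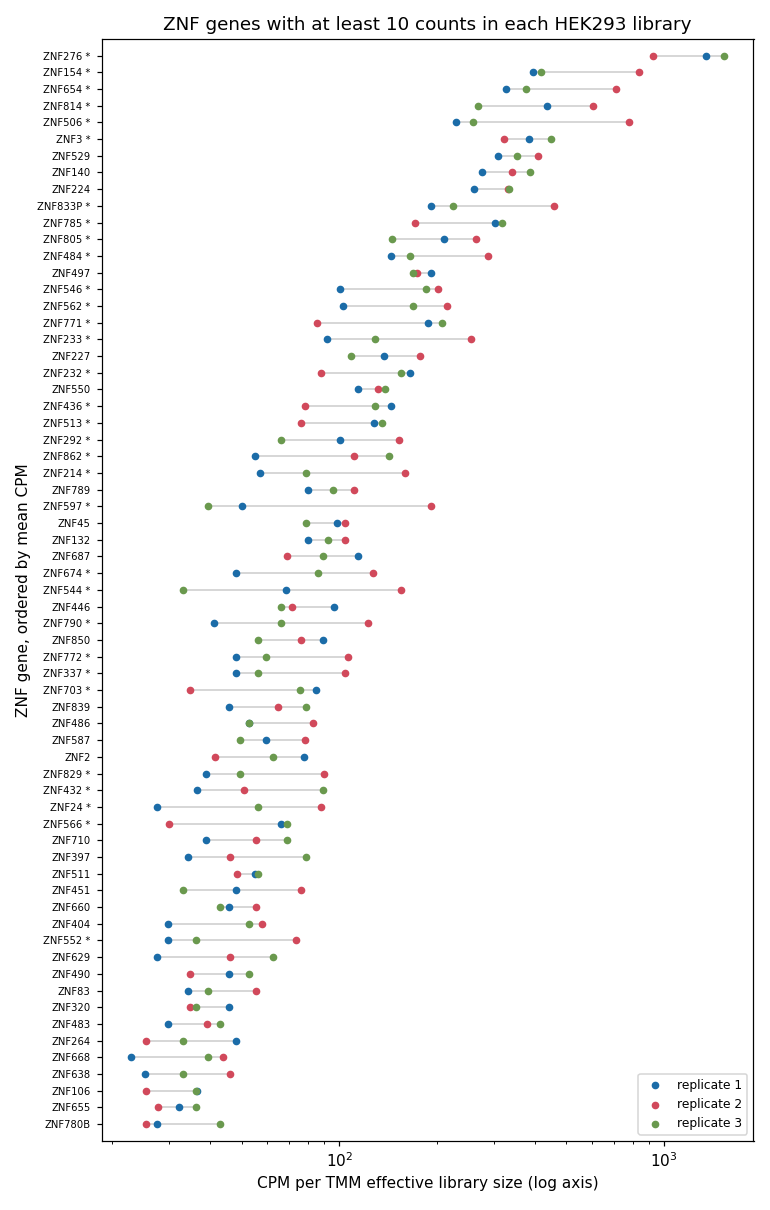
Level of each of the 65 ZNF genes in each HEK293 library, as CPM per TMM effective library size on a log axis; points are libraries and asterisks mark genes that passed the test of variation between libraries. ZNF276 lies above all other genes, and replicate 2 is the highest point in 34 of the 65 genes.

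Levels between genes can be compared only per length, and on that scale (CPM per kb of merged exon) the order changed. ZNF833P became the highest with 121, 287 and 141 CPM per kb, since its exons span only 1592 bp, of which 1540 bp are shared on the same strand with the annotated gene AC008543.1. ZNF276 followed with 181, 124 and 205 CPM per kb, and the spreads of these 2 genes overlapped. ZNF154 had 68.8, 146 and 73.3 CPM per kb and ZNF805 had 83.4, 104 and 57.5, ahead of ZNF3 with 70.8, 59.1 and 82.6. ZNF814, the fourth by CPM, fell to rank 17 with 34.5, 47.9 and 21.2 CPM per kb. The lowest were ZNF106 (2.68 ± 0.522), ZNF638 (2.78 ± 0.849) and ZNF264 (2.83 ± 0.920 CPM per kb, SD, n = 3 each), which have some of the longest exon sets. The median over the members, taken within each library, was 11.97, 17.7 and 14.7 CPM per kb in replicates 1, 2 and 3. Over all genes with 10 or more counts the medians were 22.5, 24.6 and 23.5 CPM per kb, so the members lay lower in each library.

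**Figure D2:**
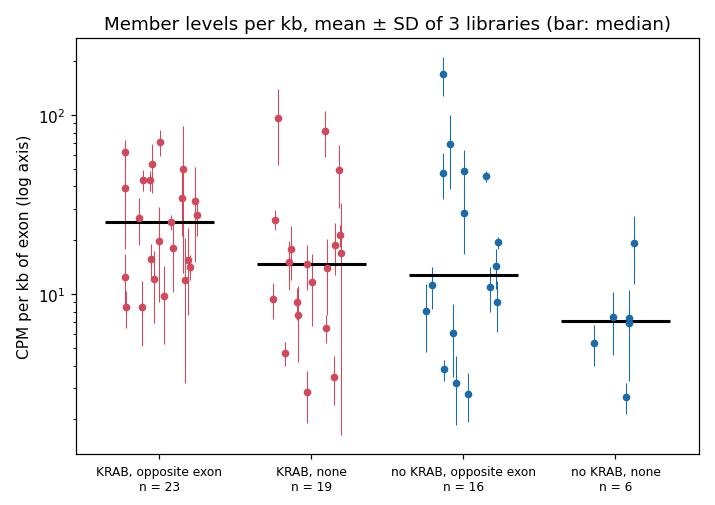
Mean level per kb of merged exon with its SD over 3 libraries (log axis) for the 64 members with a protein, split by a KRAB pattern in the protein and by an overlapping opposite-strand exon; bars are medians. The 4 groups overlap widely, with medians of 25.2, 14.7, 12.8 and 7.13 CPM per kb from left to right.

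Members varied between replicates about as often as other genes. Each gene with at least 10 counts in every library was tested with edgeR's Poisson fit for variation beyond counting noise, with Benjamini-Hochberg adjustment over all 2564 genes. Of the members 32 of 65 (49.2%) had an adjusted p under 0.05, against 45.8% of all genes tested, and 37 had an unadjusted p under 0.05. The excess coefficient of variation (CV), which is the spread left after counting noise relative to the mean, had a median of 0.241 over the members and 0.200 over all genes tested. The minimum in every library removed symbols that fell below it in 1 library, and the other genes tested passed the same minimum. Without replicate 2 only 4 members passed (9.45% of 2784 genes tested did). These were ZNF432, ZNF546, ZNF814 and ZNF862.

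Replicate 2 was singled out after its values were seen, so its position is a description. It was the highest library in 34 of 65 members (52.3%), against 40.2% of all genes tested. Among the members that passed, it was highest in 21 and lowest in 9, where 22.6% of all genes tested passed with replicate 2 highest and 17.0% with it lowest. This split depends on the scaling, being 23 and 5 with DESeq2 size factors and 15 and 11 with total counts. The log2 ratio of the CPM of replicate 2 to the mean of the other libraries had a median of 0.27 over the members and 0.00 over all genes tested. Total counts moved both medians down, to 0.04 and -0.23. A scaling shifts the ratios of all genes nearly alike, so the gap between these medians hardly changed. Positive ratios were found in 43 of 65 members (66.2%), against 50.2% of genes tested, and in 33 members with total counts. The ratios ran from -1.21 to 2.09. Between replicates 1 and 3 the median log2 ratio was -0.19 over the members and -0.07 over all genes.

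The 8 members with the largest excess CV were all highest in replicate 2. ZNF597, an imprinted KRAB gene, had 22, 83 and 12 counts, so that replicate 2 lay above the others by a log2 ratio of 2.09 (excess CV 0.889, adjusted p = 1.45e-11). ZNF506 had the smallest adjusted p of all members, 1.79e-36, with a log2 ratio of 1.69 and an excess CV of 0.733. ZNF544, a KRAB gene near the end of chromosome 19, had 30, 67 and 10 counts (excess CV 0.712, adjusted p = 6.06e-07). The other members of this group were ZNF233 with 40, 110 and 39 counts, ZNF214 with 25, 69 and 24, ZNF790 with 18, 53 and 20, ZNF833P, and ZNF24, a SCAN protein, with 12, 38 and 17. Their excess CV lay between 0.482 and 0.523. Over 3 libraries this measure reaches larger values for a gene high in 1 library than for a gene low in 1.

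Other members were low in replicate 2. ZNF703, a gene amplified in some luminal breast cancers, had 37, 15 and 23 counts, a log2 ratio of -1.21 (adjusted p = 0.0162). ZNF771 had 82, 37 and 63 counts and the same rounded ratio of -1.21 (adjusted p = 4.30e-05), and ZNF566 had 29, 13 and 21 counts and a ratio of -1.18 (adjusted p = 0.0437, but 0.0653 with DESeq2 size factors and 0.0579 with a Pearson statistic). ZNF232, ZNF785, ZNF436, ZNF513, ZNF276 and ZNF3 completed the 9, with ratios from -0.87 for ZNF232 to -0.38 for ZNF3. With DESeq2 size factors 4 of the 9 no longer passed, namely ZNF3, ZNF436, ZNF513 and ZNF566. Without replicate 1 the adjusted p of ZNF703 was 0.0541. The adjusted p of ZNF276 was 1.39e-12. At the other end, 12 members had an excess CV of 0, meaning no spread beyond counting noise. ZNF497 with 84, 75 and 51 counts, ZNF550 with 50, 57 and 42, ZNF789 with 35, 48 and 29 and ZNF45 with 43, 45 and 24 were the most abundant of these, with adjusted p from 0.440 to 0.766. The number of reads limits what the test could find here, since 1 count in replicate 3 equalled 3.30 CPM.

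The proteins of the members resembled those of the other ZNF symbols in their domains. A KRAB box was found in 42 of the 64 members with a protein (65.6%) and in 285 of 444 other ZNF proteins (64.2%). A SCAN pattern was found in 5 members, ZNF24, ZNF232, ZNF397, ZNF446 and ZNF483, of which ZNF446 and ZNF483 also had the KRAB box, and 19 members had neither. The median number of C2H2 fingers was 10 in members and 11 in the others. ZNF850 had the most, with 30 fingers, ahead of ZNF814 with 23, ZNF546 with 22 and ZNF780B with 21, and their levels differed widely, from 435 ± 168 CPM for ZNF814 to 31.9 ± 9.56 CPM for ZNF780B (SD, n = 3 each). The label of zinc finger gene held by this pattern for all but 3 members with a protein. ZNF703, ZNF839 and ZNF862 had no match to the C2H2 spacing searched, and ZNF638, a nuclear protein that takes part in silencing viral DNA, had 2.

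Members with and without a KRAB box had different medians for the place of replicate 2. With the box, 23 of 42 passed the variation test (54.8%, against 45.8% of all genes tested), 17 with replicate 2 highest and 4 with it lowest, and the median log2 ratio was 0.41. With DESeq2 size factors 22 passed, 18 with replicate 2 highest and 1 with it lowest, and with total counts 19 passed, 11 and 5. Without it, 8 of 22 passed (36.4%), 3 with replicate 2 highest and 5 with it lowest, and the median was -0.01. These became 9, 4 and 4 with DESeq2 size factors and 10, 3 and 6 with total counts. The median of the members without the box thus changed sign with the scaling, at 0.06 with DESeq2 size factors and -0.24 with total counts, whereas that of the members with it was 0.48 and 0.18. These classes were compared after the values were seen and the difference was not tested. Base composition moved with the class: the median GC content of the longest transcript was 43.0% with the box and 54.4% without it. Among members under 45% GC, the median log2 ratio was 0.53 in the 28 with the box and 0.62 in the 10 without it. Among members at or above 45%, it was 0.20 in 14 and -0.38 in 12. The part of GC content in the difference was not tested.

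Across all 65 members, a lower GC content went with a higher place of replicate 2. The log2 ratio and the GC content had a Spearman correlation of -0.436 (Pearson -0.454) over the 65 members and -0.413 (Pearson -0.415) over the 2393 genes tested with a known GC content. Both are across genes that share 3 libraries, and genes are not independent replicates. Of the 20 members under 40% GC, 12 passed the variation test (60.0%), 10 of them with replicate 2 highest and 1 with it lowest. Of the 428 genes tested in that range 53.5% passed, 42.5% with replicate 2 highest and 7.01% with it lowest. The median log2 ratio was 0.77 over these members and 0.37 over these genes. Of the 15 members at 50% or more, 7 passed (46.7%), 0 with replicate 2 highest and 6 with it lowest. Of the 936 genes tested there 41.2% passed, 6.62% with replicate 2 highest and 28.2% with it lowest, and the medians were -0.20 and -0.31. In both ranges the median of the members had the sign of that of all genes tested. ZNF654 (36.04% GC), ZNF24 (37.2%) and ZNF597 (39.8%) lay in the first group, and ZNF703 (65.2%), ZNF513 (64.3%) and ZNF276 (58.5%) in the second. In each GC range, however, the member median lay above that of all genes tested. From 40% to below 45% GC the medians were 0.53 and 0.25, and from 45% to below 50% they were 0.27 and 0.05. This gap was not tested. The log2 ratio of replicate 1 to replicate 3 had a Spearman correlation with GC of 0.131 over the members. The labels name no batch that sets replicate 2 apart.

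**Figure D3:**
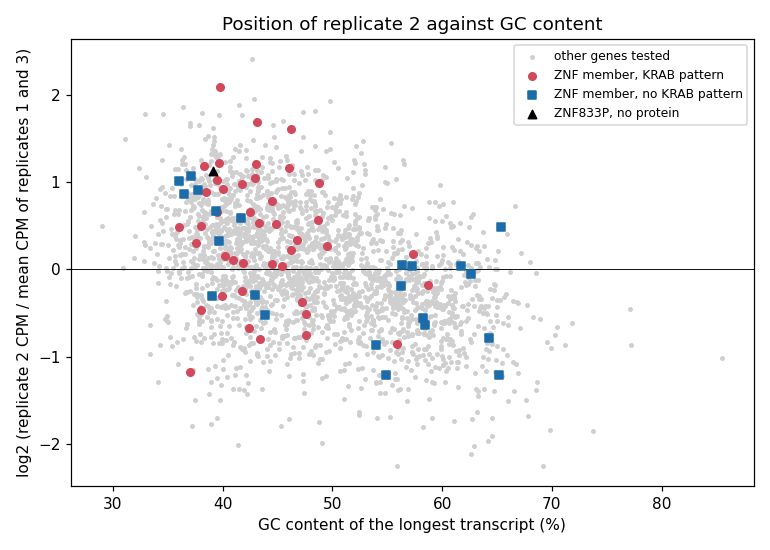
Position of replicate 2, as the log2 ratio of its CPM to the mean CPM of replicates 1 and 3, against the GC content of the longest transcript, for each gene tested (grey) and each ZNF member (coloured by KRAB pattern). Members and other genes slope the same way, with a Spearman correlation of -0.436 over 65 members and -0.413 over 2393 genes.

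Chromosome 19 held 32 of the 65 members (49.2%), as it held 47.6% of the ZNF symbols below the minimum and 5.05% of all matched genes with 10 or more counts. Of its 32 members, 15 passed the variation test (46.9%), 13 with replicate 2 highest and 1 with it lowest, and 24 had a positive log2 ratio (median 0.51). Of the 33 members on other chromosomes 17 passed (51.5%), 8 with replicate 2 highest and 8 with it lowest, and the median log2 ratio was 0.04. Both splits moved with the scaling: on chromosome 19 they were 14 and 0 with DESeq2 size factors and 8 and 1 with total counts, and elsewhere 9 and 5, and 7 and 10. Of the 2241 other genes tested elsewhere 1015 passed (45.3%), 519 with replicate 2 highest and 356 with it lowest. The genes tested on chromosome 19 that are no members lay on the other side, with a median log2 ratio of -0.54. Of these, 39 of 89 passed, 1 with replicate 2 highest and 32 with it lowest. They include antisense genes named after a ZNF gene, such as ZNF529-AS1 and ZNF790-AS1. Total counts shift every gene nearly alike. They left the order of the 3 medians and put that of the members elsewhere below 0, at -0.19. Median GC content was 42.4% for the members of chromosome 19, 46.8% for the members elsewhere and 58.5% for the other genes of chromosome 19. This comparison was chosen after the values were seen, it was not tested, and GC content moved with it.

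Neighbouring members did not all share a direction. Members no more than 1 Mb apart were joined into groups, and the largest lay at the end of the long arm, at chr19:57191500-58481230 (GRCh38), with 12 members. Of these, 9 had a positive log2 ratio and 6 passed the variation test, from ZNF544 at 1.61 to ZNF264 at -0.67. A group of 5 at chr19:43872363-44275317 (ZNF404, ZNF45, ZNF224, ZNF227 and ZNF233) had positive ratios only, from 0.15 to 1.20, and 1 of them, ZNF233, passed. Another 5 at chr19:36445119-36916291 spanned from ZNF566 at -1.18 to ZNF790 at 1.19, and 3 of them passed. Outside chromosome 19, the largest group was on chromosome 16, at chr16:30407297-31074320. Its ZNF771 and ZNF785 passed with replicate 2 lowest, whereas ZNF629 and ZNF668 did not pass, with ratios of 0.03 and 0.49.

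Exons on the opposite strand were common among the members. Of the 65, 39 (60.0%) shared exonic bases with a gene on the other strand, against 25.6% of the ZNF symbols below the minimum. Among all genes with 10 or more counts 70.6% did, and among all matched names 31.8%. The opposite gene was protein-coding for 21 members (32.3%), against 8.84%, 53.2% and 17.2% in the same order. The 39 members held 74.9%, 68.4% and 75.3% of the counts of all members in replicates 1, 2 and 3, a mean of 72.9% ± 3.84 (SD, n = 3). Counts of these 39 are uncertain as measures of either partner. For the partner with the longest overlap, the 3′ ends met for 21 members, the 5′ ends for 6, the member lay inside the partner's span for 5 and the partner inside the member's for 7. For 12 members the partner was a zinc finger gene too. In addition, 17 members shared exon bases with another gene on the same strand.

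**Figure D4:**
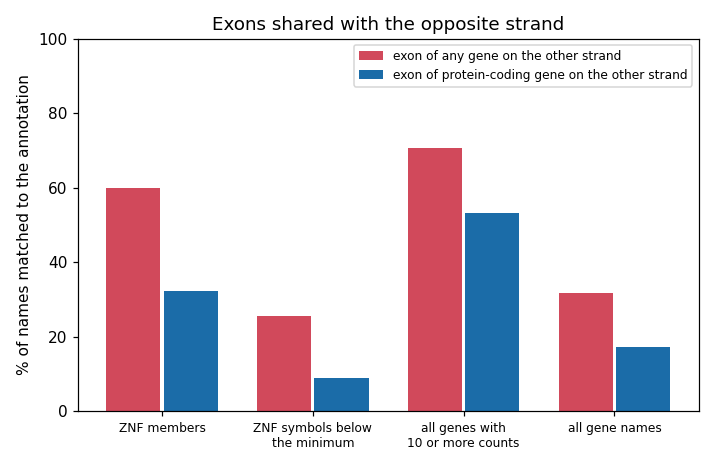
Share of gene names whose exons overlap an exon on the opposite strand, for any gene and for protein-coding genes, in 4 sets of names. The share is 60.0% for the members, between 25.6% for the ZNF symbols below the count minimum and 70.6% for all genes with 10 or more counts.

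Only the partner with the longest overlap was taken for each member. Such partners that were also in the tables gave 25 distinct pairs, 1 of them between members. In the other 24 the member was higher per kb in all 3 libraries in 18, the partner in 5, and the order was mixed in 1. Partners with a shorter overlap were left out of this tally. Of these, ZNF529-AS1 was higher per kb than ZNF529 in all 3 libraries (83.2, 62.9 and 75.9 against 37.8, 49.9 and 43.2). VPS9D1 was lower than ZNF276 in all 3. The members had to reach 10 counts and the partners did not, so this tally follows in part from the choice of members and is a description only. ZNF276 shared 2302 bp with FANCA, which had 237, 168 and 168 counts and 55.6, 39.8 and 56.9 CPM per kb, and both genes were lower in replicate 2 than in replicate 1. ZNF814 and ZNF587 are members that lie opposite each other and share 2445 bp. ZNF814 received 190, 262 and 81 counts and ZNF587 received 26, 34 and 15, so ZNF814 was higher in each library, and both were highest in replicate 2. ZNF839 shared 1380 bp with CINP, a checkpoint protein gene, and had 20, 28 and 24 counts where CINP had none in any library. ZNF140 shared 728 bp with ZNF891, which had 2, 6 and 2 counts.

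In 5 of the pairs in that tally the partner exceeded the member. ZNF337 shared 2823 bp with its antisense gene ZNF337-AS1, which had 112, 167 and 83 counts against 21, 45 and 17 for ZNF337. ZNF511 shared 896 bp at its 5′ end with TUBGCP2, a gamma-tubulin complex gene, which had 337, 164 and 229 counts against 24, 21 and 17. TUBGCP2 was lowest in replicate 2 (adjusted p = 1.57e-14), and ZNF511 showed no spread beyond counting noise. The longest overlap of any member, 2875 bp, was that of ZNF224 with AC021092.1, and ZNF562 shared 2461 bp with ZNF561-AS1, which had 6, 7 and 1 counts. The variation test was passed by 21 of the 39 members with an overlapping exon, where 46.1% of the 1691 genes tested with such an overlap did. Of the 26 members without one 11 passed (42.3%), 10 of them with replicate 2 highest. Of all genes tested 45.8% passed, 22.6% with replicate 2 highest, and the share among genes without an overlap was not taken. Median GC content was 41.7% in these 26 members and 44.9% in the 39, and its part in the split was not tested.

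Among the genes through which KRAB proteins act, levels ranged from no count to 487 CPM. Of 30 co-repressor genes listed, 25 had a count, 6 of the 30 had at least 10 in every library, a larger share than the 12.3% of ZNF symbols and the 9.68% of all gene names, and 5 (DAXX, MORC3, H3F3A, EHMT2 and ZFP57) had none. FAM208A, a core subunit of the HUSH silencing complex, had 208, 239 and 132 counts (487 ± 58.8 CPM) and did not pass the variation test (adjusted p = 0.128). MPHOSPH8, another HUSH subunit, had 40, 66 and 27 counts (111 ± 35.8 CPM) and passed with replicate 2 highest (adjusted p = 0.0287). HDAC1, a histone deacetylase, had 60, 23 and 12 counts (76.6 ± 52.9 CPM) and passed with replicate 1 highest (adjusted p = 1.22e-05). The methyltransferase SETDB1 had 6, 9 and 11 counts. SETDB1 and TRIM28 thus lay below the minimum that the members passed. FAM208A and SETDB1 share 287 and 948 bp of exon with the opposite strand, so their counts are uncertain too. MPHOSPH8, HDAC1 and TRIM28 share none.

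C2H2 genes of other families also reached the minimum in a small part of their names. Of 133 names in the ZBTB, ZSCAN, ZKSCAN, ZFP, ZIC, PRDM, KLF and EGR families and 5 single genes, 19 (14.3%) had at least 10 counts in every library. ZBTB25 led with 260, 307 and 200 counts (654 ± 56.9 CPM), followed by ZBTB5 with 132, 157 and 88 (318 ± 38.6 CPM) and MZF1 with 120, 81 and 56 (215 ± 51.2 CPM, SD, n = 3 each). Of these 19, 4 passed the variation test (MZF1, ZKSCAN4, ZSCAN29 and ZIC5), against 32 of the 65 members (49.2%). Of all genes tested 45.8% passed, a share near that of the members. None of the KLF, EGR and PRDM genes had 10 counts in every library. ZBTB25 and MZF1 share 685 and 1181 bp of exon with the opposite strand, so their counts are uncertain too, whereas ZBTB5 shares none.

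The promoters of the members share short sequences with those of the ZNF family as a whole. RefSeq windows from 250 bases before to 50 bases after the start (GRCh38.p14) were found for 58 members. The string CCGGAAG, the core bound by ETS factors, searched on both strands, occurred in 23 of them (39.7%), in 39.8% of 372 other ZNF promoters and in 10.7% of all 27305 promoters. GGGCGG, the core bound by SP factors, occurred in 67.2%, 62.9% and 44.6%, CCAAT in 41.4%, 49.7% and 35.7%, and TATAAA in 1.72%, 3.23% and 11.95%, in the same order. These strings are 4 of 14 tried after the values were seen, and a match is no proof of a bound site. Members with CCGGAAG passed the variation test in 11 of 23 cases and those without it in 15 of 35. Both lay near the 45.8% of all genes tested. The 3 windows of 120 bases before the start that hold the string and touch no annotated exon are printed on the plus strand of GRCh38.p14, with the reverse complement of the string, CTTCCGG, in capitals.
ZNF805, chr19:57240512-57240631: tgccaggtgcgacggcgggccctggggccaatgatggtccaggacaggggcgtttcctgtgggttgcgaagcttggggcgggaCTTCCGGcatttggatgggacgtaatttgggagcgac
ZNF486, chr19:20167094-20167213: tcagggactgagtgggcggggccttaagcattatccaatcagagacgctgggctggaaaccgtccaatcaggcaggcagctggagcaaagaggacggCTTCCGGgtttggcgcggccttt
ZNF264, chr19:57191380-57191499: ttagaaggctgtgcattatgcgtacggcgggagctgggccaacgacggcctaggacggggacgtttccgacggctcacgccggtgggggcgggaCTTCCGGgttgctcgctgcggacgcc
The counts of these 3 genes differed, with 92, 114 and 44 for ZNF805, 23, 36 and 16 for ZNF486 and 21, 11 and 10 for ZNF264. ZNF264 was highest in replicate 1 and the other 2 in replicate 2.

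The minimum of 10 counts cut through a continuous range. Just inside it, with 10 counts in their lowest library, were ZNF544, ZNF451 with 21, 33 and 10 counts, ZNF264, ZNF668 with 10, 19 and 12 and ZNF638 with 11, 20 and 10, followed by ZNF552 with 13, 32 and 11. ZNF451 is a SUMO ligase gene. Just outside, with 9 counts in their lowest library, were ZNF7 with 43, 32 and 9 counts, ZNF793 with 45, 24 and 9, ZNF385C with 9, 24 and 22, ZNF471 with 20, 26 and 9, ZNF57 with 20, 9 and 13 and ZNF542P with 18, 14 and 9. Their mean levels, 34.4 to 67.2 CPM, overlapped those of the 6 inside, 34.7 to 85.3 CPM. A further count of symbols shows the same: 65 ZNF symbols outside reached 10 counts in 1 or 2 libraries, of which 19 did so in replicate 1 only, 14 in replicate 2 only and 4 in replicate 3 only.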

How the data were processed

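Each of the 3 deposited tables, 1 per HEK293 library, held raw whole-number counts by gene symbol. Per the submitters' processing notes, the authors used Trimmomatic, TopHat2 (given as 2.2.5) and HTSeq 0.11.2 with hg38. The annotation and the counter's strand setting are not stated in those notes. Library sizes exclude the counter's 5 summary lines.

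CPM per TMM effective library size was computed with edgeR 4.0.16 (R 4.3.3). Variation was tested, for genes reaching 10 counts in all 3 libraries, by the deviance of an intercept-only Poisson fit (dispersion 0) against chi-square, with Benjamini-Hochberg adjustment over all and a threshold of 0.05. The excess coefficient of variation is the square root of the variance minus the counting variance, divided by the mean CPM. Counts with Poisson noise alone were simulated, with replicate 2 changed in some genes. The test called 27.7% of 47 genes at 1.5-fold, 64.6% of 48 at 2-fold, 100% of 47 at 4-fold and 47.8% of 46 at 0.5-fold. It called 0.144% of 2785 unchanged genes. No spread between libraries beyond counting noise was simulated, so these rates do not describe libraries that have it.

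Names were matched to GENCODE 29 on GRCh38 (93.2% of 26485, all 529 ZNF symbols), whose merged exons gave lengths and overlaps, longest transcripts the GC content and coding exons the proteins. This stands in for the annotation used to count. KRAB boxes were called with a profile of 39 residues from 132 ZNF proteins at 20 bits or more, in place of a fixed pattern that missed known KRAB genes. SCAN domains and C2H2 fingers were called by fixed patterns. Plots were drawn with matplotlib 3.10.9.

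The members, lists and comparisons were chosen with earlier results of these data known. Genes named were the 12 members with the highest mean CPM, those with the 8 largest and 4 smallest excess coefficients, the 6 on each side of the minimum, the 6 with the longest opposite overlap, those with the 4 highest and lowest finger numbers, the 3 highest and any called co-repressors and the 3 highest genes of other families; other names were picked after their values were seen. A gene that this rule names is not reported here. Alternatives were DESeq2 1.42.0 size factors, total counts, other filters, a Pearson statistic and leaving out each replicate.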

Additional observations from a re-analysis of the deposited data

How the results depend on the processing

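The number of members passing the variation test was 32 with DESeq2 size factors, 30 with total counts, 30 with a Pearson statistic, 32 with a mean of at least 10 counts and 27 with no count filter. Of the 32 members, 28 also passed with DESeq2 size factors, which added 4, and 27 with total counts, which added 3. Leaving out each replicate gave 4 to 29 members (4 without replicate 2, 19 without replicate 1) and 263 to 1093 of all genes tested (263 without replicate 2). With no filter 2914 of all genes passed, of 14482 tested. Summed CPM without the most abundant gene in the total was 12135, since the total shrinks. A minimum of 20 counts left 33 members. Counting protein-coding partners alone left 21 members with an opposite-strand exon, and at least 100 bp of overlap put the share of member counts at 66.0%. With the longest transcript in place of merged exons, the median level was 19.9 CPM per kb, against 14.8. Among named genes, ZNF3 (adjusted p = 0.0714), ZNF436 (0.0563), ZNF513 (0.0739) and ZNF566 (0.0653) no longer passed with DESeq2 size factors, nor ZNF805 (0.0627), ZNF337 (0.0827) and ZNF552 (0.0823) with total counts, nor ZNF513 and ZNF566 with a Pearson statistic, nor ZNF3, ZNF432, ZNF436, ZNF513 and ZNF566 with no filter. ZNF529, ZNF140, ZNF397 and ZNF451 passed with DESeq2 size factors, and ZNF397 with total counts. The cause of these changes was not tested. No paired analysis was possible because the libraries form 1 group. Depth limits the low members, for which 10 counts equal 22.9 to 33.0 CPM.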
